A study of Rattus norvegicus with 6 samples.

Results

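The BCL2 family of apoptosis regulators was followed here through 10 genes, Bcl2, Bcl2l1, Mcl1, Bax, Bak1, Bid, Bad, Bcl2l11, Bbc3 and Pmaip1, taken by their symbols from a table of 30001 features. All 10 were in the table and all 10 passed the filter on low values. Heart muscle cells were isolated from the ventricles of Sprague-Dawley rats in their first 3 days of life (neonatal rat ventricular myocytes), and the 3 control libraries (NC, a non-targeting reagent) were compared with 3 libraries of cells given sh-Decr1, a short hairpin RNA against Decr1. Both groups shared strain, tissue, isolation kit and a 2 h step after which the unattached cells were moved to a new dish. They also shared 24 h of culture before the experiment in medium with 10% fetal bovine serum and 1% antibiotic, and batch number 1. The sources used here give neither the vector, the dose and the time after knockdown nor any pooling of animals.

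The family decides whether the outer membrane of the mitochondrion is opened during apoptosis. Its guardians (Bcl2, the Bcl-x gene Bcl2l1 and Mcl1) hold the effectors Bax and Bak1 in check, and the effectors form the pores through which cytochrome c leaves. The BH3-only proteins report stress: Bid, Bcl2l11 (Bim) and Bbc3 (Puma) bind the guardians and can also engage the effectors, while Bad and Pmaip1 (Noxa) mainly occupy particular guardians. Heart muscle cells divide little after birth, so lost cells are hardly replaced, and the family has long been studied there in ischaemic injury.

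In cells with the Decr1 hairpin, 9 of the 10 genes stood higher and Bad stood lower. Bbc3 rose the most, from 7.02 to 27.4 FPKM, followed by the effector Bak1, from 26.4 to 65.1 FPKM, while the guardians Mcl1 and Bcl2l1 rose least among the genes that went up. FPKM is the number of fragments on a gene scaled by gene length and library size. All 10 passed the test (limma on log2(FPKM + 1), Benjamini-Hochberg adjusted p under 0.05), but so did 80.8% of the 11975 features tested. Of all features, 48.4% were called higher and 32.4% lower, so a passed test does not by itself set this family apart. The groups did not overlap for any of the 10 genes. That held for 82.3% of all features, with 49.2% higher and 33.0% lower. The median log2 fold change (knockdown minus control) was 0.56 over the 10 genes and 0.14 over all features. A rise of at least 1 on the log2 scale was reached by 2 of the 10, Bbc3 and Bak1, against 10.9% of all features. Bcl2l11 stood at 0.88 although its ratio of means was 2.17, because the 1 added to each FPKM understates changes at low levels.

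**Figure D1:**
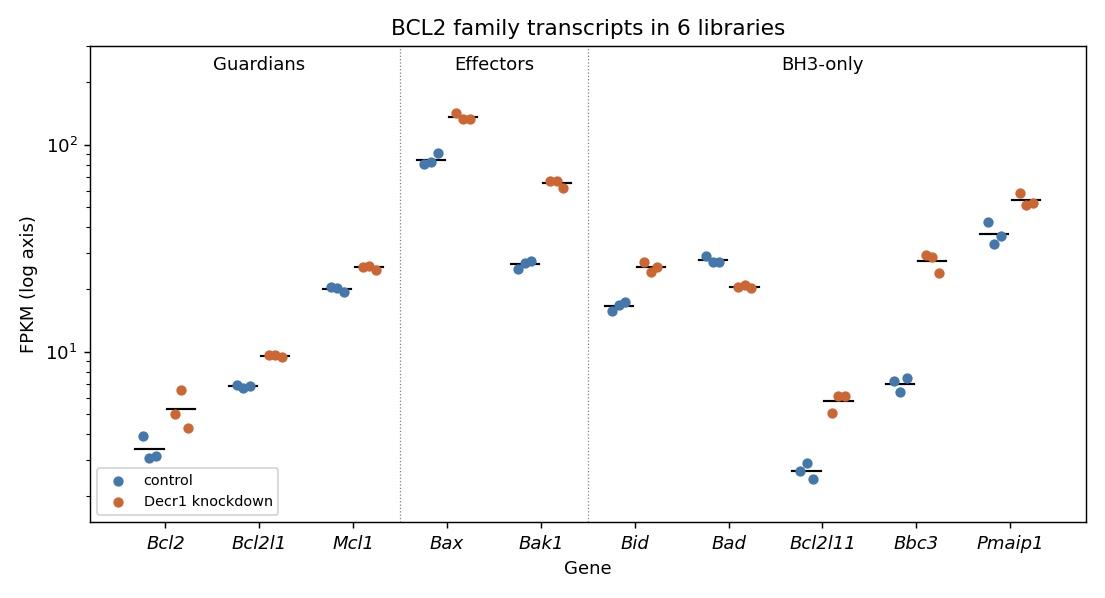
FPKM (log axis) of each gene in the 3 control and 3 knockdown libraries, by class; points are libraries and bars are group means. The groups are apart for all 10 genes, with Bad the only one whose knockdown points lie below its control points.

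The libraries held 35290664 to 40108670 fragments. Decr1, the target, ranged from 42.8 to 44.3 FPKM over the control libraries and from 1.24 to 3.33 FPKM over the others, where 5.30% of the control mean remained (two-sided exact permutation test, p = 0.1, the smallest that 3 against 3 libraries can give). Separate cultures or animals are not stated in the labels, so the p-values cover only the spread between these libraries, which may be technical. The change was broad, with 5797 features called higher and 3881 lower, or 4619 and 4921 after median-ratio scaling and 4989 and 4565 after quantile normalization. Markers of cell types also differed between the groups. Muscle markers were abundant in both groups, at a summed 18014 to 18620 FPKM in controls and 11667 to 12519 FPKM in the knockdown over 11 genes, of which 4 rose and 7 fell. All 12 fibroblast markers fell, their sum going from between 7455 and 8297 FPKM to between 643 and 738 FPKM. The 6 epicardial markers went from a sum of 145 to 158 FPKM to one of 6.29 to 7.76 FPKM, with 5 of 5 tested lower. Of the endothelial markers 3 of 5 tested fell and Kdr rose, with sums of 148 to 178 and 70.7 to 77.0 FPKM. Macrophage markers fell in 4 of 5 tested cases, with sums of 504 to 573 and 311 to 370 FPKM. Smooth muscle and pericyte markers rose in 2 and fell in 3 of 6 cases, with sums of 2862 to 3134 and 4582 to 4998 FPKM. Lymphocyte, Schwann and erythroid markers were low, at sums of at most 6.65, 3.01 and 1.38 FPKM in any library, and Cd3e, Ms4a1 and Alas2 were among those at 0 in the knockdown. In bulk RNA, fewer cells of a type and less RNA per cell cannot be told apart, and the part of this shift in the family's changes was not tested.

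All 3 guardians rose, by 0.33 to 0.51 on the log2 scale. Bcl2, the founding member, was the scarcest of them, at 3.92, 3.08 and 3.13 FPKM in control replicates 1 to 3 and 4.99, 6.53 and 4.28 FPKM in knockdown replicates 1 to 3. Its highest control and lowest knockdown library lay close together, though the groups did not overlap. These values rested on only 144 to 185 reads per control library and 178 to 288 per knockdown library. The ratio of group means was 1.56. On the log2 scale the change was 0.51 (SE 0.13, limma, adjusted p = 0.00419). Bcl2 was also the most variable of the 10 genes in both groups. Its coefficient of variation was 14% in controls and 21.9% in the knockdown, where read counting alone would give 7.93% and 6.61%.

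Bcl2l1 gives rise by splicing to a long protein that protects and a short one that promotes death, which gene-level values do not separate. Controls had 6.90, 6.67 and 6.85 FPKM, knockdown libraries 9.62, 9.61 and 9.39 FPKM. Its libraries lay close together, with a coefficient of variation of 1.82% in controls, the lowest of the 10 genes, and 1.35% in the knockdown, where that of Bad was 1.32%. The log2 fold change was 0.43 (SE 0.06, limma, adjusted p = 4.00e-05).

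Mcl1 encodes a short-lived guardian on which heart muscle cells depend in mice. Control libraries had 20.6, 20.3 and 19.5 FPKM, knockdown libraries 25.8, 25.9 and 24.9 FPKM. Among the guardians Bcl2, Bcl2l1 and Mcl1 it was the most abundant per length in each library. The guardian relative Bcl2a1, outside the 10 genes, stood higher in each library, with means of 35.6 (controls) and 36.2 FPKM (knockdown). Mcl1 changed the least of the 10 genes, with a log2 fold change of 0.33 (SE 0.05, limma, adjusted p = 0.000112). Against the median of all features the shift was 0.18, and it was 0.15 after median-ratio scaling. The like values for Bcl2l1 were 0.29 and 0.27, and both genes kept their call under that scaling.

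Both effectors rose. Bax, which moves from the cytosol to the mitochondrion when activated, had the highest FPKM of the family in each library. It went from 80.8, 82.0 and 91.1 FPKM in controls to 143, 134 and 132 FPKM in the knockdown. All knockdown libraries were above all controls, by a ratio of means of 1.61 and a log2 fold change of 0.68 (SE 0.06, limma, adjusted p = 1.29e-06). Bak1, the effector that resides in the outer membrane, went from 25.1, 26.8 and 27.3 FPKM to 66.8, 66.4 and 62.1 FPKM. Its lowest knockdown library was 2.28 times its highest control library. The log2 fold change was 1.27 (SE 0.05, limma, adjusted p = 8.60e-09). Bak1 thereby moved from the fourth to the second place among the 10 members by mean FPKM.

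Among the BH3-only genes, Bbc3 changed the most. It is a textbook target of stress-responsive transcription factors. Control libraries stood at 7.21, 6.39 and 7.45 FPKM (686 to 810 reads) and knockdown libraries at 29.4, 28.8 and 24.1 FPKM (2303 to 2978 reads). The lowest knockdown value was 3.23 times the highest control value, and the ratio of means was 3.91. The log2 fold change was 1.82 (SE 0.08, limma, adjusted p = 2.06e-08).

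Bcl2l11 encodes Bim, which binds all the main guardians. It had the lowest mean FPKM of the 10 genes in controls, at 2.65, 2.90 and 2.41 FPKM, and stood at 5.03, 6.13 and 6.10 FPKM in the knockdown. The ratio of means was 2.17, and the log2 fold change, which understates changes at such levels, was 0.88 (SE 0.09, limma, adjusted p = 5.92e-06). With a pseudocount of 0.1 in place of 1 it was 1.09. In the RefSeq table Bcl2l11 overlaps the coding gene Acoxl, and with no strand setting given, reads of the shared stretch cannot be assigned to one of them. The same limit holds for Bcl2, which overlaps 2 long non-coding RNA genes, for Bak1, which overlaps 1, and for Bcl2l1, which overlaps a pseudogene.

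Bid links death receptors to the mitochondrion once it is cleaved by caspase 8. It went from 15.7, 16.9 and 17.3 FPKM to 27.0, 24.2 and 25.6 FPKM, without overlap. Its ratio of means was 1.54. The log2 fold change was 0.59 (SE 0.06, limma, adjusted p = 6.20e-06).

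Pmaip1 encodes Noxa, which binds Mcl1. It was the second most abundant member per length in controls, at 42.3, 33.0 and 36.1 FPKM, against 58.1, 51.2 and 52.3 FPKM in the knockdown. Control replicate 1 lay above the other controls and still below each knockdown library. The log2 fold change was 0.53 (SE 0.09, limma, adjusted p = 0.000216), or 0.39 above the median of all features. It was 0.35 after median-ratio scaling, where the call held.

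Bad, which is kept inactive by phosphorylation and 14-3-3 binding while growth signals last, was the one member that fell. Its 28.9, 27.1 and 27.2 FPKM in controls became 20.5, 20.9 and 20.4 FPKM in the knockdown. The ratio of knockdown to control means was 0.743, and all knockdown libraries lay below all controls. The log2 fold change was -0.41 (SE 0.05, limma, adjusted p = 2.16e-05), which is -0.55 against the median of all features. The fall held under both scalings, at -0.59 and -0.57.

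**Figure D2:**
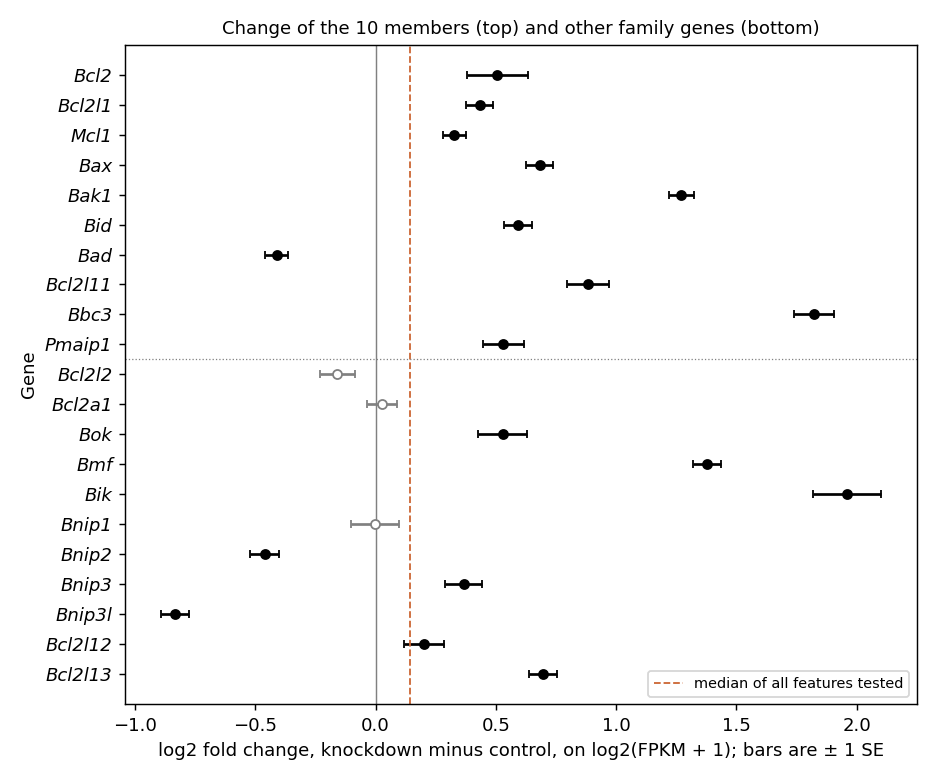
Log2 fold change (knockdown minus control, on log2(FPKM + 1)) with ± 1 SE for the 10 members above the dotted line and 11 other family genes below it; filled points passed the test and the dashed line is the median of all features, 0.14. Bbc3 and Bak1 lie farthest right among the members, and Bad is the only member left of 0.

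Stretches before the RefSeq start sites of Pmaip1, Bcl2l11 and Bad (build GRCr8, plus strand) are shown because they hold letters known as binding motifs of stress-responsive factors in members that moved in both directions. They span 120 bases each, and capitals mark the motif matches.
Pmaip1, chr18:62255850-62255969: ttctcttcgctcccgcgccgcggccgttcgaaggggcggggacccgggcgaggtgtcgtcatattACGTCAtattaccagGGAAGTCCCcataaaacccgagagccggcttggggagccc
Bcl2l11, chr3:135819792-135819911: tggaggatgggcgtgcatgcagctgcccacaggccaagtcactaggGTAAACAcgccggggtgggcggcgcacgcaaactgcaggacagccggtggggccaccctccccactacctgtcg
Bad, chr1:213562934-213563053: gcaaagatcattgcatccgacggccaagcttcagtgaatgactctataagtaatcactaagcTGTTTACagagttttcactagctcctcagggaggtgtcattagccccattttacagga

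In these stretches Pmaip1 holds the core of the CREB and ATF motif (TGACGT, here on the minus strand) 55 to 50 bases before the start and an NF-κB motif (GGGNNTTCC, also on the minus strand) 40 to 32 bases before it. Bcl2l11 holds the FOXO motif GTAAACA 204 to 198 bases before its start, and Bad holds it on the minus strand 118 to 112 bases before its own. The search covered 250 bases before each start on both strands, for 8 of the 10 members with 11 start regions. Bax and Bbc3 had no start region available and were not searched. Within a start region no motif match overlapped another. Of 33360 distinct start regions in RefSeq, 6.95% hold the CREB and ATF core, 3.21% the FOXO motif and 5.09% the NF-κB motif. The IRF core AANNGAAA, held by 23.4% of start regions, matched in 5 of the 11 member start regions, those of Bcl2, Bcl2l1 and Bak1. Several of these belong to Bcl2l1, whose start regions partly share bases. A match describes letters only, and whether any factor binds there or acts on these genes was not tested. Bcl2l11, with its FOXO letters, rose, while Bad, with the same letters, fell. The 2 FOXO factors listed were called in opposite directions, and both are named after their values were seen. Foxo3 went from 12.3 ± 0.693 to 9.60 ± 0.384 FPKM (SD, n = 3; limma, adjusted p = 0.000675). Foxo1 went from 1.14 ± 0.109 to 1.51 ± 0.223 FPKM (adjusted p = 0.0372) and lost its call in 7 of the 12 alternatives, both scalings among them. For the motifs marked in Pmaip1, Creb1, Rela and Nfkb1 were called higher, by 0.34, 0.54 and 0.50 on the log2 scale. Atf4 did not pass and was called lower after both scalings. The part of any of these factors in the members' changes was not tested.

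Summed by class over the 10 members only, the guardians held 31.4, 30.1 and 29.5 FPKM in controls and 40.4, 42.0 and 38.6 FPKM in the knockdown. The effectors held 106, 109 and 118 FPKM in controls and 210, 200 and 195 FPKM in the knockdown. The BH3-only genes held 96.8, 86.2 and 90.5 FPKM against 140, 131 and 129 FPKM. No sum overlapped between the groups, and the effector sum rose by the largest ratio, 1.81 against 1.33 for the guardians and 1.46 for the BH3-only genes. The ratio of effectors to guardians was 3.37, 3.62 and 4.02 in controls, against 5.20, 4.76 and 5.04 in the knockdown. The class sums leave out relatives measured in the same libraries, and ratios including them were not computed. The guardian relative Bcl2a1 alone had means of 35.6 (controls) and 36.2 FPKM (knockdown), against guardian sums averaging 30.3 and 40.3 FPKM. Bcl2l2 went from a mean of 14.4 to 12.8 FPKM, and neither relative passed the test as deposited. Bok, the effector relative, rose from a mean of 26.2 to 38.0 FPKM. The ratio of BH3-only genes to guardians was 3.01 ± 0.119 in controls and 3.31 ± 0.173 in the knockdown (SD, n = 3), with its lowest knockdown library, at 3.12, just above its highest control, at 3.08. The Bax to Bcl2 ratio, often quoted as a readout of this balance, was 20.6, 26.6 and 29.1 in controls and 28.7, 20.4 and 31.0 in the knockdown, and the groups overlapped. These sums and ratios were not tested, and they describe transcripts, not proteins.

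**Figure D3:**
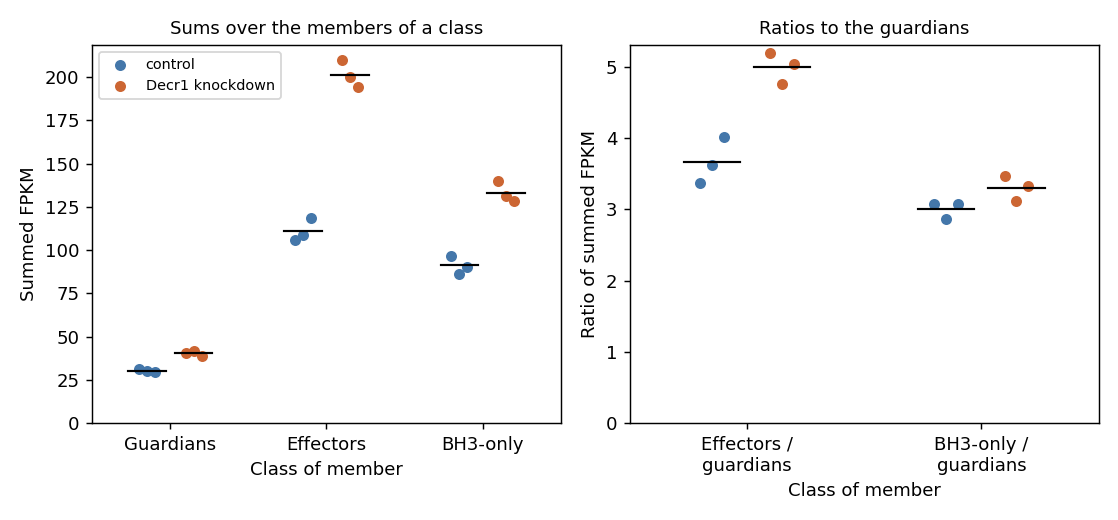
Left, summed FPKM per library of the guardians, effectors and BH3-only genes among the 10 members. Right, the ratios of these effectors and BH3-only genes to these guardians. Points are libraries and bars are group means. The ratio of effectors to guardians, without Bok, Bcl2a1 and Bcl2l2, is 3.37 to 4.02 in controls, against 4.76 to 5.20 in the knockdown.

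By mean FPKM the order in controls was Bax, Pmaip1, Bad, Bak1, Mcl1, Bid, Bbc3, Bcl2l1, Bcl2 and Bcl2l11. In that order Bad overlapped with Bak1 and Bbc3 with Bcl2l1, and all other neighbours were apart. In the knockdown the order was Bax, Bak1, Pmaip1, Bbc3, Bid, Mcl1, Bad, Bcl2l1, Bcl2l11 and Bcl2. There Bbc3 overlapped with Bid, Bid with Mcl1, and Bcl2l11 with Bcl2. Bad went from the third place to the seventh, and Bbc3 from the seventh to the fourth.

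The lengths behind these values differ widely and could be recovered from the table. The FPKM of Bcl2l1 was computed over 14290 bases, that of Mcl1 over 6462, of Bcl2l11 over 6112, of Bax over 832 and of Pmaip1 over 318 bases. In consequence Bcl2l1, with 3778 to 3943 reads per control library, stood at a lower FPKM than Bax, with 2688 to 3040 reads. Pmaip1 had 416 to 538 reads per control library, fewer than Bbc3, although its mean FPKM was 37.1 against 7.02. The order of genes within a library therefore rests on these gene models, whereas a comparison of the groups for one gene uses the same length on both sides.

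**Figure D4:**
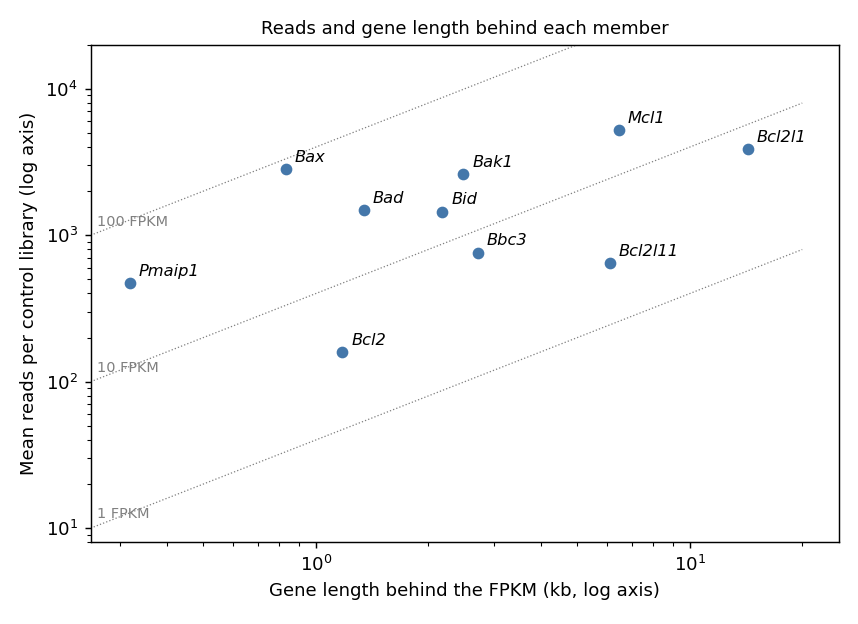
Mean reads per control library against the gene length behind the FPKM, both on log axes, for the 10 members; dotted lines join points of equal FPKM. Bcl2l1, at 14290 bases, lies under the line of 10 FPKM although only Mcl1 has more reads.

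Of 15 further family genes, all in the table, 11 were tested. Of these 6 rose and 2 fell, around a median of 0.20 (log2 fold change). After median-ratio scaling 4 rose and 4 fell. Of all features 48.4% were called higher and 32.4% lower, and after median-ratio scaling 4619 and 4921 of 11961. These counts therefore do not by themselves set the further family genes apart. The BH3-only gene Bmf, which like Bcl2l11 binds the dynein light chains, rose from 3.61 ± 0.0336 to 11.0 ± 0.276 FPKM (SD, n = 3; limma, adjusted p = 1.13e-08). The BH3-only gene Bik was nearly silent in controls, with 2, 5 and 21 reads, and had 140, 148 and 111 reads in the knockdown, where it stood at 3.78 ± 0.440 FPKM (adjusted p = 5.02e-07 by the same test). Hrk, a BH3-only gene best known from neurons, was under the filter, at 7, 9 and 7 reads in controls and 129, 132 and 124 reads in the knockdown, and so was not tested. Bok, the relative of Bax and Bak1, went from 26.2 ± 4.58 to 38.0 ± 1.52 FPKM (adjusted p = 0.000729), again without overlap.

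The guardian relatives Bcl2l2 and Bcl2a1 did not pass. Bcl2l2 stood at 14.4 ± 1.14 and 12.8 ± 0.993 FPKM (SD, n = 3; limma, adjusted p = 0.0691) and was called lower after median-ratio scaling (adjusted p = 0.00169) and after quantile normalization (adjusted p = 0.00386). It was also called lower without control replicate 2 (adjusted p = 0.0352) or without knockdown replicate 2 (adjusted p = 0.0279). Bcl2a1 stood at 35.6 ± 2.52 and 36.2 ± 2.08 FPKM (adjusted p = 0.699). After median-ratio scaling it was called lower, with a log2 fold change of -0.15 (adjusted p = 0.0463), and after quantile normalization it stood at -0.11 (adjusted p = 0.134). Bcl2l10 had 1 read in a single control library and none elsewhere. The mitophagy receptor Bnip3l fell from 13.6 to 7.21 FPKM and Bnip2 from 23.1 to 16.5 FPKM. Bcl2l13, a mitophagy receptor of the same family, rose from 8.64 to 14.6 FPKM. Bnip3 stood at 33.1 and 42.7 FPKM (adjusted p = 0.00145 as deposited, 0.0519 after median-ratio scaling). Bcl2l12 was just past the threshold (adjusted p = 0.0497) and missed it in 10 of the 12 alternatives, and Bnip1 had 8.03 and 7.98 FPKM (adjusted p = 0.985). Bcl2l14 and Bcl2l15 were under the filter, at 0.331 and 0.127 FPKM in controls and 0.753 and 0.534 FPKM in the knockdown.

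In the list of caspase and release-factor genes, 10 of 13 rose, Diablo fell, and Casp6 and Endog did not pass. Their median log2 fold change was 0.62, against 0.14 over all features, of which 48.4% were called higher and 32.4% lower. The caspase gene Casp2 rose from 5.38 ± 0.275 to 13.7 ± 1.35 FPKM (SD, n = 3; limma, adjusted p = 2.00e-07), and Dffa, whose protein holds the apoptotic nuclease inactive until it is cleaved, from 9.63 to 19.9 FPKM. After median-ratio scaling 9 rose and 2 fell. Among 6 genes of inhibitors of apoptosis and their antagonist Xaf1, 4 rose, Xiap was called lower and Birc6 did not pass, with a median of 0.73. For Xiap, at 4.98 and 4.03 FPKM, the groups overlapped (limma, adjusted p = 0.0291). Its call was lost with no filter on low values and without control replicate 1 or 2 or knockdown replicate 2 or 3, with an adjusted p of up to 0.111. Xaf1, an interferon-inducible gene, rose from 1.64 ± 0.0900 to 14.2 ± 2.29 FPKM (adjusted p = 8.18e-09). The inhibitors Birc2, from 8.33 to 16.8 FPKM, and Birc3, from 1.40 to 2.76 FPKM, rose, as did Birc5 (survivin), from 4.72 to 8.96 FPKM. Birc5 also serves in mitosis.

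In the list of membrane partner and cristae genes, 7 of 11 rose, 3 fell and Dnm1l did not pass, with a median of 0.26. After median-ratio scaling 5 rose and 3 fell. As background to this list and the next, 48.4% of all features were called higher and 32.4% lower. The channel genes split. Vdac1 rose from 130 ± 5.73 to 200 ± 5.63 FPKM (SD, n = 3; limma, adjusted p = 6.15e-07) and Vdac2, whose protein binds Bak1, from 114 to 147 FPKM, while Vdac3 fell from 123 to 97.5 FPKM. Immt, a cristae organiser, rose from 61.8 to 80.4 FPKM. In the death receptor arm, which feeds Bid, 5 of 8 tested genes were called higher, Tradd and Ripk1 lower and Casp8 did not pass, with a median of 0.17. After median-ratio scaling 3 rose and 2 fell. The 7 calls became 5 with the replicate block, and 5 or 6 when 1 library was left out. Cflar, at 4.50 and 5.18 FPKM (adjusted p = 0.0394), lost its call in each of these fits, and Ripk1, at 9.99 and 8.93 FPKM (adjusted p = 0.0318), in each except that without control replicate 3. The receptor gene Fas rose from 6.49 ± 0.184 to 13.5 ± 0.628 FPKM (adjusted p = 1.77e-07), its adaptor Fadd from 8.06 to 16.0 FPKM and the receptor gene Tnfrsf10b from 6.01 to 8.85 FPKM. Tradd, an adaptor of the TNF receptor, fell from 13.2 to 9.57 FPKM. Faslg and Tnfsf10, the ligands, were under the filter.

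Of 15 transcription factor genes known to act on family members, 13 were tested. In this list 10 were called higher, Foxo1 among them, Foxo3 fell, and Atf4 and Hif1a did not pass, with a median of 0.46. After median-ratio scaling 8 rose and 3 fell. Here and for the next list, the shares over all features were 48.4% called higher and 32.4% lower. Jun, which acts on Bcl2l11 in neurons, rose from 18.6 ± 1.53 to 42.9 ± 1.47 FPKM (SD, n = 3; limma, adjusted p = 6.00e-08). Other rises were those of Myc, by 0.87 on the log2 scale, and of E2f1, from 3.15 to 6.43 FPKM. Among 18 genes that control family proteins, 13 rose and 3 fell, or 9 and 5 after median-ratio scaling, with a median of 0.36. Fbxw7, a ubiquitin ligase adaptor that marks Mcl1 for breakdown, rose from 2.74 ± 0.225 to 9.81 ± 0.116 FPKM (adjusted p = 1.46e-08). Akt1, whose kinase phosphorylates Bad, rose from 82.7 to 141 FPKM, and the 14-3-3 gene Ywhaz from 259 to 386 FPKM. Their relatives in the same list did not all rise. The 14-3-3 gene Ywhab fell from 98.5 to 68.8 FPKM (limma, adjusted p = 3.50e-06). Ywhae and Ywhaq were called higher as deposited (adjusted p = 0.00579 and 0.0180) and passed after neither scaling. Akt2 was called lower, at 29.8 and 27.1 FPKM (adjusted p = 0.0427), and lost the call in 8 of the 12 alternatives. Dynll2, a dynein light chain that tethers Bmf, rose from 43.2 to 76.2 FPKM. The fibroblast markers were lower by a median of -3.29 in the same libraries, and their part in these lists was not tested.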

How the data were processed

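RNA sequencing of 6 libraries was analysed. Per gene symbol, the authors deposited FPKM, 1 column per library. The tools in the submitters' processing notes are fastp, HISAT2 and HTSeq. The sources used here give no versions, build, annotation or strand setting. FPKM steps gave whole reads, gene lengths and depths for 22631 of 22634 features above 0, unless all 6 counts share a factor. Between libraries, the chi-square of reads per feature was 6.83 to 11.7 within groups, so none was counted as a repeat of another.

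Log2(FPKM + 1) was tested for the 11975 features averaging at least 1 FPKM over all libraries, with limma 3.58.1 (eBayes with trend, R 4.3.3), without covariates, two-sided, with Benjamini-Hochberg adjustment over all features at 0.05. No count model was used. Group values are mean ± SD. The fit and the read recovery were tested on simulated data. Same-numbered libraries did not deviate together, so no block was used. Named are Decr1, the 10 members, all other family genes measured, and up to 4 genes with the smallest adjusted p in each further list. Some of these are not reported here. Other genes named, such as those that did not pass, were chosen after their values were seen. Members and lists were chosen with earlier results of these data known. Of 19 genes listed for protein control, 18 were analysed. Start regions are from RefSeq (GRCr8). Alternatives were another pseudocount, no filter, median-ratio and quantile scaling, a replicate block, no trend and leaving out each library. Plots were made in Python 3.11.15 with matplotlib 3.10.9.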

Additional observations from a re-analysis of the deposited data

How the results depend on the processing

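Each of the 10 members kept its direction and its call in all 12 alternatives tried, 120 values in all, and the counts stayed at 9 higher and 1 lower. These alternatives refit the same 6 libraries, so the 120 values are not independent. In the fit as reported 80.8% of all features were called, so stable calls do not by themselves set the family apart. The largest adjusted p of any member was 0.0300, for Bcl2 with no filter on low values. The class sums over the members moved with the scaling. After median-ratio scaling the ratio of knockdown to control was 1.17 for guardians, 1.59 for effectors and 1.29 for BH3-only genes. Bcl2a1 turned to -0.15 on the log2 scale after median-ratio scaling and to -0.11 after quantile normalization, and ranged from -0.0213 to 0.0778 when 1 library was left out. Bnip1 likewise ranged from -0.106 to 0.0826. For none of these was the cause tested. With the replicate block 9 members were higher and 1 lower, as without it. The replicate numbers did not pair the libraries, since deviations of same-numbered libraries correlated at -0.00267, 0.0678 and -0.0713. Among genes of the wider lists that passed, Bcl2l12 and Cflar each lost their call in 10 of the 12 alternatives, Akt2 in 8, Foxo1 in 7, Opa1 and Ripk1 in 6, and Dffb and Xiap in 5. Among the 10 members, Bcl2 rested on the fewest reads, 144 to 185 per control library.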
